A study of Homo sapiens with 6 samples.

Results

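BCKDHB and the genes around it in the breakdown of the branched-chain amino acids leucine, isoleucine and valine were examined by RNA-seq in A549 cells, a human lung adenocarcinoma line. BCKDHB was picked on its difference between the groups of these same libraries. BCAT1, BCAT2, BCKDHA, DBT, DLD, BCKDK, PPM1K, IVD and MCCC2 were chosen by their place in the pathway, with earlier results of these data known. The differences of these 10 genes are therefore a description, and no p-value is given for them. The 10 genes were found by symbol among 26485 deposited symbols, and all 10 were among the 13356 genes with enough counts to be tested.

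The cells stably carried dCas9-KRAB, in which a Cas9 that cannot cut DNA is joined to the repressor domain KRAB, and rat Nkx2-1, a lung transcription factor that parental A549 cells lack. Both groups shared these additions, delivered as transgenes to a pool of cells kept under puromycin at 10 µg/ml. One group was transiently transfected with synthetic sgRNA #2, which directs dCas9-KRAB to an NKX2-1-bound site in the first intron of the surfactant gene SFTPB, and the other with a non-targeting sgRNA (sgRNA control). Each group had 3 libraries, described as biologically independent triplicates, and the comparison asks which genes change besides the target.

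Branched-chain amino acids first lose their amino group to the transaminases BCAT1, in the cytosol, and BCAT2, in mitochondria. The resulting keto acids are then oxidised, irreversibly, by the branched-chain ketoacid dehydrogenase of the mitochondrial matrix. BCKDHA and BCKDHB are the alpha and beta subunits of its decarboxylase, DBT is the acyltransferase core, and DLD is a dehydrogenase that other 2-oxo acid dehydrogenase complexes also use. The kinase BCKDK inactivates the complex by phosphorylating BCKDHA, the phosphatase PPM1K reverses this, and IVD and MCCC2 act further down the leucine branch. Loss-of-function mutations in BCKDHA, BCKDHB or DBT cause maple syrup urine disease.

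The target of sgRNA #2 is shown because it is the only sequence that differed by design between the groups. Beside it stands a site near the start of BCKDHB with the longest run of equal bases at the PAM end. Capitals mark the PAM and, in the BCKDHB site, also the bases next to it that equal the target.
sgRNA #2 target: gggatgggaggggaacacccAGG
BCKDHB site: cgtccttgctttctcaACCCAGG
The target had 1 exact site in GRCh38, at chr2:85668529-85668551 on the minus strand, which 2 of the 7 transcripts of SFTPB in the annotation place in intron 1. The BCKDHB site lies at chr6:80107204-80107226 on the plus strand, 568 bases after an annotated start and in intron 1 of the canonical transcript. It shared a run of 4 PAM-proximal bases with the target and differed from it at 14 of 20 positions. Where several sites of a gene had equal runs, the first by position was taken, so others may differ at fewer positions. No longer run was found before an NGG within 1000 bases of an annotated BCKDHB start on either strand. A run of at least 4 bases was present near 95.8% of the 13076 tested genes that could be placed on the genome.

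Among the other members, DBT also had a longest run of 4 bases. The longest run was 5 bases in BCAT1, BCAT2, BCKDHA, BCKDK and DLD, and 6 bases in IVD, lengths reached by 76.4% and 24.0% of the tested genes. MCCC2 and PPM1K had the longest runs, of 7 bases, which 5.51% of the tested genes reached, and both sites are shown because they carry the longest runs among the 10 members.
MCCC2 site: gcctctcaccataAACACCCTGG
PPM1K site: tgcatttctaaccAACACCCTGG
The first lies at chr5:71650219-71650241 in intron 15 of the canonical MCCC2 transcript, and the second at chr4:88279024-88279046 in intron 1 of canonical PPM1K. They lie 933 and 665 bases after annotated starts that are not the canonical starts of these genes. Over all 20 positions these sites differed from the target at 12 and 10, while the sites taken for BCAT2, BCKDK and DLD differed at 9. Mean levels of MCCC2 and PPM1K with sgRNA #2 were 102% and 110% of control, the latter with the wide interval given with its counts. Whether such a run bears on a level was not tested.

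The region before the first annotated start of BCKDHB is shown next to that of BCKDHA, its partner subunit, because the levels of these subunits changed by unlike amounts. Both are RefSeq sequences on GRCh38.p14, plus strand, cut off before the first annotated transcript, with CCAAT (or ATTGG on the other strand) in capitals.
BCKDHB, chr6:80106421-80106646: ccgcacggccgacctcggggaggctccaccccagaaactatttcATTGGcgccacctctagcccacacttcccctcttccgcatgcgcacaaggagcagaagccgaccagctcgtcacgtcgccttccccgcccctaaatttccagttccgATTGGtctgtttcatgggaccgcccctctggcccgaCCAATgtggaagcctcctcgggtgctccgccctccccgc
BCKDHA, chr19:41397568-41397807: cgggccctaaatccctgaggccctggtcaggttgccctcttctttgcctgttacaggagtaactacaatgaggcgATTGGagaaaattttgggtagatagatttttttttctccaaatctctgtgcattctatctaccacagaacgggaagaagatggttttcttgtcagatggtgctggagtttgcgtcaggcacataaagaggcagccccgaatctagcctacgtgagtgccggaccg
Over the full windows, from 250 bases before to 50 after the RefSeq start, BCKDHB held 3 copies of CCAAT and BCKDHA 1. The windows of IVD and MCCC2 also held 3 copies each, and 34.6% of 35116 RefSeq promoters held at least 1. GGGCGG occurred 3 times in the BCKDHB window and 0 times in that of BCKDHA, against 45.0% of all promoters with at least 1 copy. TGCGCA, the NRF1 core, occurred 1 time in the BCKDHB window, 1 time in a DLD window and 0 times in that of BCKDHA. It was present in 8.24% of all promoters. CAAG, the core of the motif that NKX2-1 binds, occurred 1 time in the BCKDHB window and 2 times in that of BCKDHA, and in 86.0% of all promoters. The remaining motifs searched did not differ between these windows. TGACG, the CREB core, occurred 1 time in each (24.6% of all promoters). The E-box CACGTG (7.26%) and the AP-1 site TGACTCA (4.95%) occurred 0 times in both. GC content was 66.0% in the BCKDHB window and 51.0% in that of BCKDHA. These are matches of letters only, searched on both strands, and whether they bear on the levels was not tested.

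BCKDHB, the beta subunit of the decarboxylase (chr6:80106647-80346270, plus strand, 10 exons in the canonical transcript, overlapping 0 other annotated genes), was lower with sgRNA #2. It had 138, 138 and 221 reads in control replicates 1 to 3, which is 21.9, 19.5 and 29.0 CPM (normalised counts scaled by TMM to the reads on genes of a library). With sgRNA #2 it had 56, 68 and 62 reads, or 7.95, 10.2 and 10.3 CPM. The highest sgRNA #2 library lay below the lowest control library, and control replicate 3 stood above the other controls. The mean was 23.5 ± 4.93 CPM in control and 9.48 ± 1.33 CPM with sgRNA #2 (SD, n = 3), or 40.4% of control. The log2 fold change was -1.32 with a standard error of 0.166, the 71st lowest of 13356 tested genes. This place depends on the count filter, at 34 with 10 counts in every library and 1256 without a filter. Taken by replicate number, the log2 ratios were -1.46, -0.94 and -1.49. In bulk RNA, fewer cells that express a gene and less RNA per cell cannot be told apart.

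**Figure D1:**
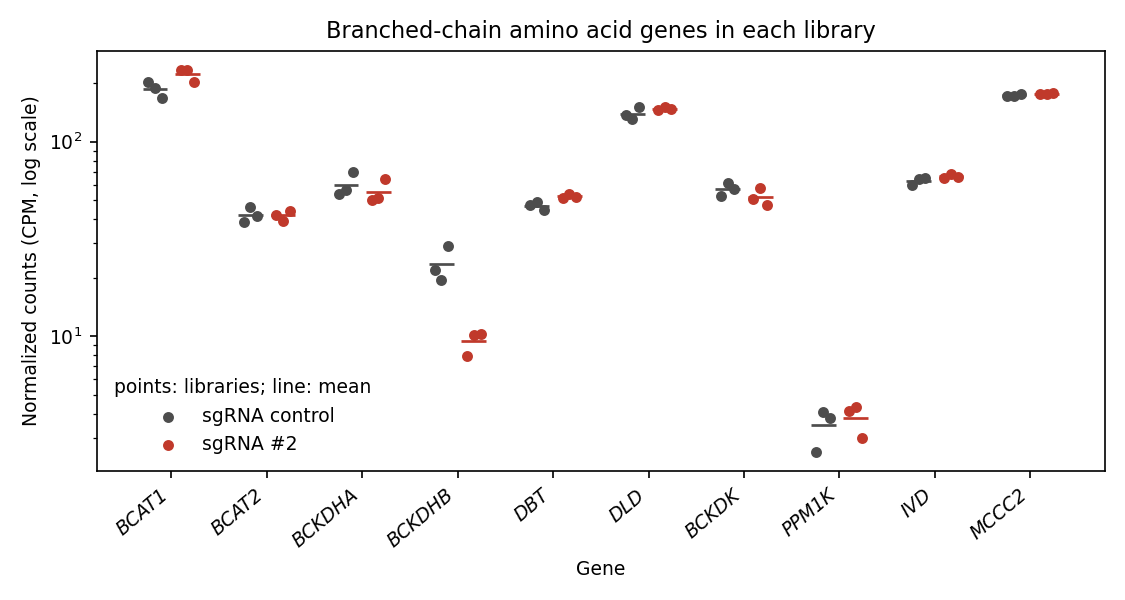
Normalised counts (CPM, log axis) of the 10 branched-chain amino acid genes in each library, with points for the 3 sgRNA control and 3 sgRNA #2 libraries and a line at each group mean. BCKDHB is the gene with a wide gap between groups, 19.5 to 29.0 CPM against 7.95 to 10.3 CPM, and PPM1K is the lowest of the 10 in both groups.

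BCKDHB was the 1 gene of the 10 with a log2 fold change of -1 or less and an adjusted p under 0.05, a pair of cut-offs that 0.689% of all tested genes passed. None of the 10, 0 in all, was higher by the same cut-offs, against 0.0299% of tested genes. At any fold, adjusted p-values under 0.05 took in 2.22% of tested genes as lower and 0.464% as higher, and of the 10 genes 1 was lower (BCKDHB) and 0 were higher. Control and sgRNA #2 libraries did not overlap in 1 gene that was lower, BCKDHB, and 1 that was higher, DBT, against 8.83% and 6.77% of tested genes. Since BCKDHB was picked on this contrast, nothing is read from these counts. The other 9 members had log2 fold changes from -0.13 to 0.26 with a median of 0.07, beside a median of 0.00 over all tested genes.

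BCKDHA, the alpha subunit that pairs with BCKDHB (chr19:41397808-41425002, plus strand), was close to its control level. Its levels were 53.9, 56.2 and 69.7 CPM in control and 50.4, 51.1 and 64.7 CPM with sgRNA #2. The groups overlapped, and replicate 3 was the highest library in both. The log2 fold change was -0.12 with a standard error of 0.110, and an interval of 1.96 standard errors ran from -0.34 to 0.09. The annotation places another gene on the same strand over exons of BCKDHA, so reads may be divided between them.

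DBT, the core of the complex (chr1:100186919-100249834, minus strand), lay at 47.1, 49.1 and 44.8 CPM in control and at 51.3, 53.8 and 51.9 CPM with sgRNA #2. The sgRNA #2 libraries were all higher, with a gap smaller than the range within the control group. The log2 fold change was 0.16 with a standard error of 0.082. DLD, the shared dehydrogenase (chr7:107891162-107931730, plus strand), lay at 137, 131 and 150 CPM in control and at 145, 150 and 148 CPM with sgRNA #2. Its groups overlapped, and the log2 fold change was 0.08 with a standard error of 0.068. Exons of DBT and DLD, and of BCAT1, BCAT2 and PPM1K below, are overlapped by antisense genes, among them LAMB1 at DLD. The strand setting of the counts is not given in the sources used here.

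Of the regulators of the complex, the kinase BCKDK (chr16:31106107-31112791, plus strand) lay at 52.8, 61.2 and 57.4 CPM in control and at 50.7, 57.9 and 47.6 CPM with sgRNA #2. The groups overlapped at a log2 fold change of -0.13 and a standard error of 0.091. The phosphatase PPM1K (chr4:88257620-88284769, minus strand) had only 16, 29 and 29 reads in control and 29, 29 and 18 with sgRNA #2. This is 2.54, 4.10 and 3.81 CPM against 4.12, 4.35 and 2.99 CPM, and both groups held 1 low library. Its log2 fold change of 0.13 had a standard error of 0.263 and an interval from -0.39 to 0.64, so a moderate difference in PPM1K was not detectable at this depth.

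The transaminases precede the complex. BCAT1 (chr12:24810024-24949101, minus strand) lay at 204, 188 and 168 CPM in control and at 233, 234 and 202 CPM with sgRNA #2. One control and one sgRNA #2 library overlapped, and the log2 fold change was 0.26 with a standard error of 0.079. Within each replicate number the sgRNA #2 library was the higher one, by log2 ratios of 0.19, 0.31 and 0.27. BCAT1 did not pass an adjusted p of 0.05 in the main fit, but did so in 4 of 12 alternative fits. These were the fits with the replicate number as a block (log2 fold change again 0.26), without a filter, without sgRNA control replicate 1 and without sgRNA #2 replicate 3. As higher, 530 of 13356 tested genes (3.97%), 145 of 19505, 57 of 13356 and 60 of 13356 passed there. The p-values of the first 2 rest on the dispersion trend alone, and nothing is read from these counts. BCAT2 (chr19:48795062-48811029, minus strand) lay at 38.5, 46.1 and 41.5 CPM against 42.0, 39.1 and 44.2 CPM. Its libraries were interleaved and its log2 fold change was -0.01 with a standard error of 0.095.

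Downstream in the leucine branch, IVD, the dehydrogenase of isovaleryl-CoA (chr15:40405485-40435947, plus strand), lay at 60.1, 64.2 and 64.8 CPM in control and at 64.7, 68.4 and 66.2 CPM with sgRNA #2. The groups met at their edges, with a log2 fold change of 0.07 and a standard error of 0.075. MCCC2, the beta subunit of methylcrotonyl-CoA carboxylase (chr5:71579531-71658706, plus strand), lay at 171, 172 and 177 CPM against 176, 176 and 178 CPM. Its groups overlapped, its log2 fold change was 0.03 with a standard error of 0.061, and it was the steadiest of the 10 genes within the control group. The SD within the control group was 1.75% of the mean for MCCC2, 21.0% for BCKDHB and 23.8% for PPM1K, the lowest and the 2 highest of the 10.

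Levels can be compared between genes only per length, so CPM were divided by kilobases of merged exons. In control, the order was DLD at 27.4 ± 1.90 CPM per kb, BCKDHA at 26.6 ± 3.80, BCAT1 at 16.4 ± 1.59, BCKDK at 14.7 ± 1.09, BCAT2 at 9.23 ± 0.846, IVD at 9.19 ± 0.376 and MCCC2 at 8.33 ± 0.146 CPM per kb. BCKDHB followed at 5.77 ± 1.21, DBT at 4.04 ± 0.186 and PPM1K at 0.306 ± 0.0728 CPM per kb (SD, n = 3 throughout). Libraries overlapped between DLD and BCKDHA, between BCAT1 and BCKDK, and between BCAT2 and IVD, and these neighbours in the order are not told apart, while the other neighbours did not overlap. With sgRNA #2, BCKDHB was at 2.33 ± 0.326 CPM per kb and moved from place 8 to place 9, below DBT at 4.50 ± 0.115. The length decides part of this order: with the longest transcript in place of merged exons, MCCC2 stood at place 3 with 31.3 CPM per kb, while BCKDHB kept places 8 and 9.

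The decarboxylase holds its alpha and beta subunits in equal number, so the ratio of BCKDHB to BCKDHA levels per kb was taken in each library. It was 0.225, 0.192 and 0.230 in control and 0.0872, 0.110 and 0.0881 with sgRNA #2. The groups did not overlap, and the mean ratio of 0.216 ± 0.0206 in control was 0.0952 ± 0.0130 with sgRNA #2, or 44.1% of control. The ratio reuses the BCKDHB levels on which the gene was picked and is a description. The ratio of DBT to BCKDHA was 0.154 ± 0.0259 in control and 0.186 ± 0.0263 with sgRNA #2, and that of DLD to BCKDHA 1.04 ± 0.0853 and 1.19 ± 0.159. Both of these overlapped between groups and were lowest in replicate 3 of each group, where BCKDHA was highest. The ratio of BCAT1 to BCAT2 was 1.79 ± 0.284 and 2.14 ± 0.288, also with overlap. Taken by replicate number, the ratios of DBT and DLD to BCKDHA and of BCAT1 to BCAT2 were higher with sgRNA #2 in each of the 3 pairs, DBT to BCKDHA going from 0.169, 0.169 and 0.124 to 0.197, 0.204 and 0.155.

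**Figure D2:**
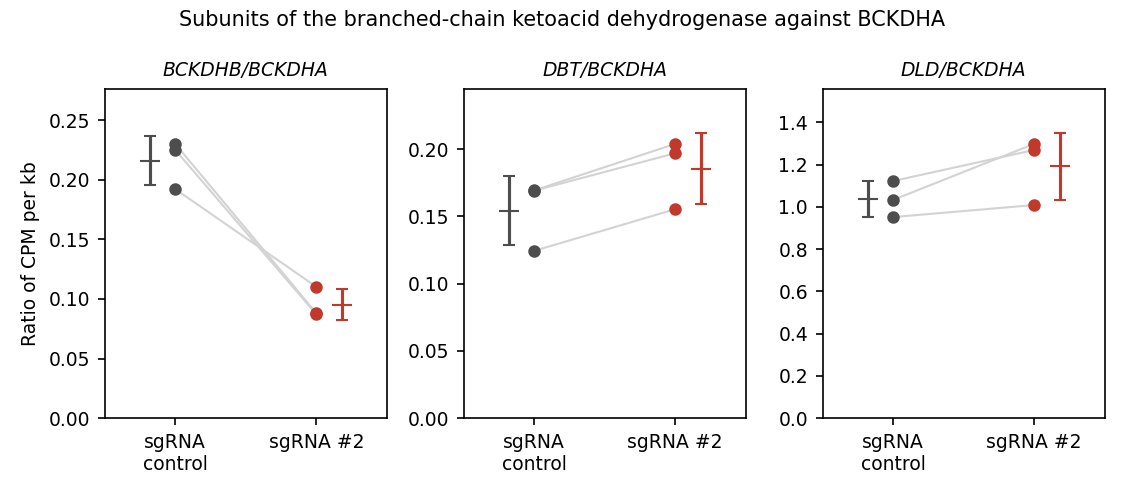
Ratios of BCKDHB, DBT and DLD to BCKDHA in CPM per kb, with a point for each library, grey lines joining equal replicate numbers, and mean and SD (n = 3) beside the points, on axes that start at 0. The BCKDHB ratio lies at 0.192 to 0.230 in control and at 0.0872 to 0.110 with sgRNA #2, while the other ratios overlap between groups.

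The wider pathway was followed in 7 lists of 54 further genes, of which 51 were tested in edgeR by quasi-likelihood, with p-values adjusted after Benjamini and Hochberg over all tested genes. The lists were also chosen with earlier results of these data known, which the p-values do not take into account. Of these 51, 1 passed both cut-offs as lower and 0 as higher, against 0.689% and 0.0299% of all tested genes. At any fold 1 was lower and 1 higher, against 2.22% and 0.464%. Their median log2 fold change was 0.02, and 22 of 51 were below 0. The groups did not overlap in 3 genes that were lower (ECHS1, SLC43A2 and ETFDH) and in 3 that were higher, PDK4 among them. Over all tested genes, 8.83% were lower and 6.77% higher without overlap, and nothing is read from these counts. The 2 genes that passed were ECHS1 and PDK4.

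ECHS1, the mitochondrial enoyl-CoA hydratase that acts in the isoleucine and valine branches and in fatty acid oxidation (chr10:133362485-133373354, minus strand), fell. It had 881, 1073 and 1151 reads in control and 269, 242 and 244 with sgRNA #2. Each sgRNA #2 library lay far below each control library, at 38.3 ± 2.15 against 148 ± 6.57 CPM (SD, n = 3). The log2 fold change was -1.95 with a standard error of 0.0754 (edgeR, adjusted p = 8.4e-12). The other 9 genes of these branches did not pass, and the list's median was -0.05. HIBADH, the dehydrogenase of hydroxyisobutyrate in the valine branch, was at 124 ± 7.48 CPM in control and 118 ± 13.1 with sgRNA #2. HADHA, a subunit of the trifunctional protein of fatty acid oxidation, was at 120 ± 8.61 against 116 ± 6.75 CPM.

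PDK4, a kinase that inactivates pyruvate dehydrogenase, a complex built like the branched-chain one, rose. It had 291, 391 and 400 reads in control and 486, 540 and 462 with sgRNA #2, and all sgRNA #2 libraries lay above all controls. Its level was 51.4 ± 4.63 CPM in control and 75.6 ± 6.07 with sgRNA #2, a log2 fold change of 0.55 with a standard error of 0.0878 (edgeR, adjusted p = 0.00099). The other 6 kinases and phosphatases of this list did not pass. PDP2, a catalytic subunit of the pyruvate dehydrogenase phosphatase, was at 70.6 ± 4.79 CPM in control and 76.9 ± 9.66 with sgRNA #2, and PDPR, a regulatory subunit of that phosphatase, was at 131 ± 7.95 and 132 ± 2.97 CPM.

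No gene of the remaining 5 lists passed at any fold. In the rest of the leucine branch 5 of 6 genes were tested, with a median log2 fold change of -0.02, and the thiolase ACAT1 was at 54.5 ± 8.95 CPM in control and 51.4 ± 5.40 with sgRNA #2. Of the 6 genes that turn propionyl-CoA into succinyl-CoA or serve that step, 5 were below 0, with a median of -0.15. There the mutase MUT was at 33.8 ± 2.37 and 33.8 ± 2.66 CPM, and MMAB, which makes its cobalamin cofactor, was at 34.0 ± 3.56 and 28.8 ± 4.85 CPM.

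Transport genes had a median of 0.04 over 6 tested. SLC7A5 and SLC3A2, the light and heavy chains of a large neutral amino acid exchanger at the cell surface, were at 1671 ± 127 and 521 ± 22.0 CPM in control and at 1780 ± 103 and 534 ± 2.60 with sgRNA #2. The pyruvate, 2-oxoglutarate and 2-oxoadipate dehydrogenase genes had a median of 0.08 over 7 tested, and their log2 fold changes lay between -0.06 and 0.14. DLST was at 125 ± 3.99 and 133 ± 6.61 CPM, and PDHA1 at 120 ± 1.93 and 121 ± 4.0 CPM. Cofactor genes had a median of 0.08 over 10 tested. Of these, ETFA and ETFB, which take electrons from IVD and related dehydrogenases, were at 55.1 ± 2.98 and 54.1 ± 6.40 CPM in control and 53.5 ± 3.85 and 55.8 ± 5.80 with sgRNA #2.

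With the replicate number as a block, 4 genes of the lists passed as lower and 1 as higher, against 6.06% and 3.97% of all tested genes in that fit. The added genes were SLC43A2, PDK3 and ETFDH. The p-values of the block fit rest on the dispersion trend alone. SLC43A2, a transporter of neutral amino acids, was at 22.4 ± 3.06 CPM in control and 17.1 ± 1.95 with sgRNA #2, a log2 fold change of -0.39 with an adjusted p of 0.193 in edgeR without the block and 0.00750 with it. ETFDH, which passes electrons from these dehydrogenases to ubiquinone, was at 14.3 ± 1.85 and 10.7 ± 0.963 CPM (edgeR, adjusted p = 0.216 without and 0.0284 with the block). Exons of ETFDH are overlapped by the antisense genes C4orf46 and PPID. PDK3 was at 54.5 ± 2.32 and 47.3 ± 7.84 CPM (edgeR, adjusted p = 0.497 without and 0.0468 with the block), and its log2 ratios by replicate number were -0.35, 0.03 and -0.33.

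**Figure D3:**
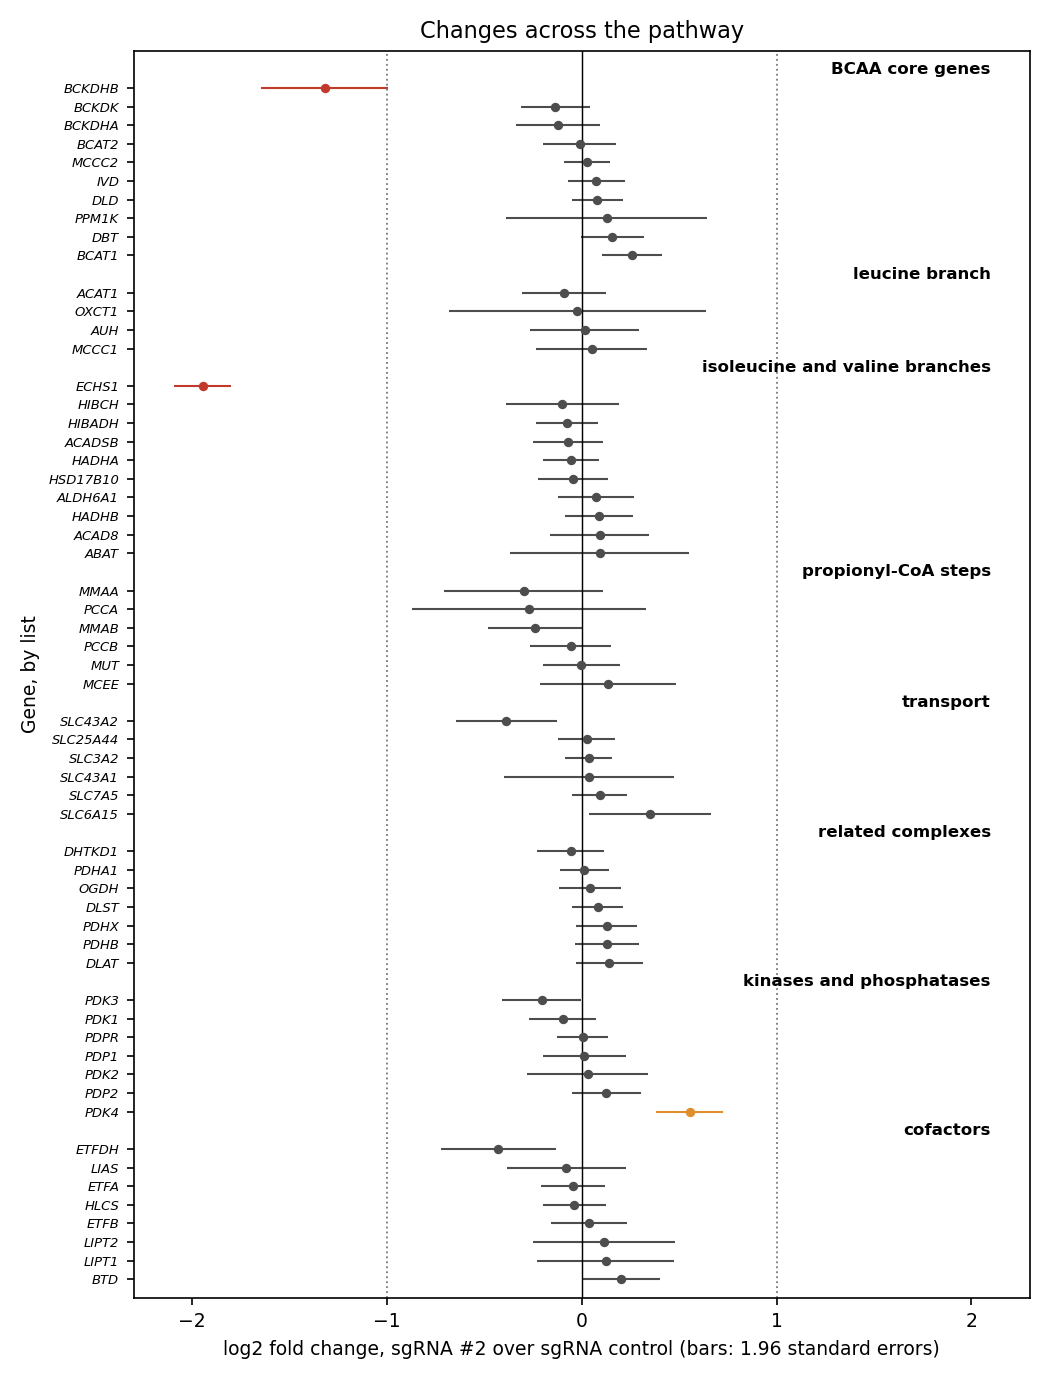
Log2 fold change of sgRNA #2 over sgRNA control for the 10 members (core genes) and tested genes of the 7 other lists (not all are drawn), with bars of 1.96 standard errors and dotted lines at -1 and 1. BCKDHB at -1.32 and ECHS1 at -1.95 (red) lie left of the dotted line, PDK4 at 0.55 (orange) passed the test at a smaller fold, and the other genes drawn (grey) did not pass.

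Genes beside BCKDHB on chromosome 6 were examined for the same shift. Of 8 matched genes whose start lies within 1 Mb of that of BCKDHB, 5 were tested and 0 passed at any fold. Over all tested genes, 2.22% passed as lower and 0.464% as higher, so nothing is read from this count. The nearest tested start was that of TTK, a mitotic kinase, which lies 103 kb before BCKDHB and was at 22.7 ± 2.31 CPM in control and 24.3 ± 1.48 with sgRNA #2 (log2 fold change 0.10, edgeR adjusted p = 0.832). HMGN3, a nucleosome-binding protein gene, had the log2 fold change farthest from 0 of the 5, at -0.18 (edgeR adjusted p = 0.648). HMGN3-AS1, LCA5 and SH3BGRL2 had log2 fold changes of 0.05, -0.01 and -0.07. The 5 genes whose log2 CPM ran most like that of BCKDHB over the 6 libraries were APPL2, ERI3, SLC25A5, MREG and VKORC1, with Pearson's r of 0.992, 0.990, 0.989, 0.988 and 0.987. All 5 were lower without overlap between groups, as were 8.83% of tested genes, with log2 fold changes of -0.18, -0.31, -0.27, -0.58 and -0.14. They were chosen by likeness to BCKDHB, itself lower without overlap, so this follows largely from the choice and nothing is read from it. The likeness includes the difference between the groups. The 6 libraries share that one contrast, and no test is given.

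The libraries held 6047554 to 7584611 reads on genes, and 3 reads, taken as the floor of detection, equalled 0.394 to 0.499 CPM, below every value of the 10 members. The floor covers counting error only, while the intervals of 1.96 standard errors come from the edgeR fit and also hold variation between libraries. SFTPB, the target, was at 416 ± 9.90 CPM in control and 6.71 ± 1.28 with sgRNA #2. All 6 epithelial markers were detected, KRT19 only with 0 to 4 reads, with summed levels of 3579 to 4543 CPM in control and 3378 to 4156 with sgRNA #2. Among them CDH1, the epithelial cadherin, fell from 238 ± 16.0 to 188 ± 5.07 CPM without overlap (log2 fold change -0.34, edgeR adjusted p = 0.0073), and its part in the results above was not tested. Summed markers of fibroblasts (6.51 to 9.06 CPM in control, 6.15 to 8.69 with sgRNA #2, COL1A2 and DCN at 0), endothelial cells (0.477 to 0.849 and 0.166 to 0.600 CPM, CDH5 at 0) and leukocytes (2.38 to 4.81 and 2.13 to 4.20 CPM, PTPRC and CD3E at 0) overlapped between groups.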

How the data were processed

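The authors deposited raw counts of reads per gene symbol from htseq-count, without normalization. The submitters' processing notes also name Trim Galore, FastQC, Bowtie2 2.3.3.1, SAMtools, Picard and hg38, and the annotation and strand setting are not given in the sources used here. Rows for reads outside genes (19.7 to 21.1% of counted reads) and ambiguous between genes (2.61 to 2.75%) were left out. The sample labels gave the group and replicate number. Libraries of one group differed by more than sampling noise.

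Genes reaching 10 counts in 3 or more libraries were tested in R 4.3.3 with edgeR 4.0.16 (TMM, quasi-likelihood test), after the scripts were tested on simulated data. The size of the log2 fold change over the root of its F statistic gave the standard error. The cut-offs, a log2 fold change of at least 1 in size and an adjusted p under 0.05, are the study's. Alternatives were DESeq2 1.42.0, RLE size factors, total counts, no filter, a filter on every library, the replicate block and each library left out. Same-numbered libraries deviated together from their group means (correlations 0.269, 0.287 and 0.291), and those of unlike numbers are not given here. The numbers were taken to pair libraries only in the block fit and in values by replicate number, while the main fit was unpaired. This pairing rests on the data and not on a stated shared day.

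Positions are from GENCODE release 44 on GRCh38, with 24522 of 26485 symbols matched, 1361 of them through a RefSeq synonym. The sgRNA sequence came from the study's supplementary tables. RefSeq promoters (GRCh38.p14) were matched for 9 of 10 members, BCAT2 being the other. The 7 motifs searched on both strands were CAAG (NKX2-1 core), CCAAT, the GC box GGGCGG, the E-box CACGTG, the CREB core TGACG, the NRF1 core TGCGCA and the AP-1 site TGACTCA. Each was counted on its own, whether or not copies of another motif overlapped it. Sequence searches ran in Python 3.11.15. The members and lists were chosen with earlier results of these data known. Named genes were all members, and from each list those with an adjusted p under 0.05 and the 2 tested genes with the highest mean CPM, the tested genes within 1 Mb of BCKDHB, and the 5 most like it. SLC43A2, PDK3 and ETFDH were named after their values were seen. Some genes of the lists, counted in the totals, are not reported here by name.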

Additional observations from a re-analysis of the deposited data

How the results depend on the processing

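BCKDHB passed both cut-offs in all 12 alternatives, with a log2 fold change of -1.44 (without sgRNA control replicate 2) to -1.13 (without sgRNA control replicate 3) when 1 library was left out. None of the other 9 members passed both, and their median log2 fold change then lay between 0.02 and 0.09, with 1 member passing each time. BCKDHB was picked on these same libraries, which the alternatives reuse, so its passing again is a description and nothing is read from it. Over the alternatives, 60 of 12562 (10 counts in every library) to 118 of 19505 (no filter) tested genes were lower by both cut-offs. BCAT1 passed at any fold in 4 of 12 alternatives, in which 57 to 530 of all tested genes passed as higher. The count of other pathway genes with an adjusted p under 0.05 was 5 instead of 2 with the replicate block, and 2 with each library left out. Over all genes, 60 instead of 92 were lower when 10 counts were required in every library, and 9 (no filter) or 8 (replicate block) instead of 4 were higher. At any fold, the block moved the genes passing as lower from 297 to 809 and as higher from 62 to 530. Leaving out 1 library gave 73 to 97 lower and 3 to 10 higher, with 9 higher without sgRNA control replicate 1 and 10 without sgRNA #2 replicate 3. In the fits without a filter or with the block, the prior degrees of freedom were infinite, so those p-values rest on the dispersion trend alone. With the longest transcript as length, the BCKDHB to BCKDHA ratio was 0.186 in control and 0.0819 with sgRNA #2, still 44.1% of control. With a PAM of NGG or NAG, 4 instead of 2 members had a run of 7 or more bases, and BCKDHB had 5. Depth limits PPM1K most, with 16 to 29 reads a library.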
